A study of Arabidopsis thaliana with 3 samples.

Results

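The genes described here are 39 Arabidopsis genes of the jasmonate pathway, listed by locus code for their known roles. The list was drawn up with earlier results of these data known. They comprise 13 genes of synthesis, 4 of hormone activation, turnover and perception, the 12 JAZ repressor genes JAZ1 to JAZ12, 4 genes for the MYC factors and the adaptor NINJA, and 6 genes that serve as outputs of the pathway. Of these, 35 were measured, by 60 probes, among 24648 genes in all. No probe was assigned to LOX4 (AT1G72520), LOX6 (AT1G67560), MYC3 (AT5G46760) or MYC4 (AT4G17880), which are not analysed here. JAZ2 and JAZ9 carry the symbols TIFY10B and TIFY7 in the gene table used.

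Each of 3 two-colour arrays, which are biological replicates per the labels, was hybridised with rosette RNA of plants labelled lsm1a lsm1b and of Col-0, the wild-type control. The genes LSM1A and LSM1B encode LSM1, a subunit of a cytoplasmic protein ring through which messenger RNAs are decapped and degraded. The mutant RNA carried Cy3 on arrays 1 and 3 and Cy5 on array 2. Both genotypes share all other labels, which give plants of 2 weeks grown at 22 °C with 16 h of light and 8 h of dark in the characteristics and growth protocol, but plants of 3 weeks kept for 1 day at 4 °C in the sample descriptions, so the temperature behind the comparison is not settled. The labels do not say whether plants were pooled. The labels name no allele beyond the gene names, and the LSM1A and LSM1B transcripts are not analysed here.

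Every value is a log2 ratio within an array, read as lsm1a lsm1b over Col-0, so a value of 1 is a doubling in the mutant and a negative value is a lower level there. The labels do not settle this direction. They list the mutant as the first channel of each array and call Col-0 the control, which is the basis of the reading, but the sample titles name Col-0 first. The dye-swapped array correlated above 0 with arrays 1 and 3 over probes (r = 0.416 and 0.411), which shows that the 3 arrays were turned alike and not which way. Were the ratio deposited the other way round, all directions below would turn while sizes and p-values would stay. Ratios carry no level, so the genes were not ordered by expression, and the rosette label could not be checked by the presence of leaf transcripts. The tissue was bulk, so fewer cells of a type and less RNA per cell cannot be told apart.

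Jasmonates are lipid hormones made from a plastid fatty acid. Lipases release the fatty acid, lipoxygenases (LOX) oxidise it, allene oxide synthase (AOS) and allene oxide cyclases (AOC) turn it into the precursor OPDA, and OPDA is reduced by OPR3 and shortened in the peroxisome. JAR1 joins the product to isoleucine, and the conjugate lets the receptor COI1 bind JAZ proteins, which are then degraded. JAZ proteins repress MYC2 and related factors, largely through NINJA. In leaves, the MYC branch drives genes of wound and herbivore defence such as VSP2, and a second branch, through ERF1 and ORA59, drives defensin genes with ethylene. Many JAZ, LOX and AOC genes are themselves induced by jasmonate.

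None of the 35 measured genes passed the test over all genes. The test was limma's moderated test of the mean ratio against 0, two-sided, and a gene passed at a p under 0.05 after Benjamini-Hochberg adjustment over 24648 genes. Of all genes 1.21% passed, 0.625% above 0 and 0.584% below 0. The lowest adjusted p-values of the group were 0.0569 for JAZ6 and 0.0571 for AOC4. At an unadjusted p under 0.05 there were 8 of 35 genes (22.9%), against 20.1% of all genes, so their number was close to the background in this fit. With a term for dye, which leaves 1 residual degree of freedom, there were 15 of 35 (42.9%), against 25.9% of all genes, with 10 below 0 (11.8% of all genes) and 5 above (14.2%). Of the 8 in the reported fit, 7 had a mean below 0, namely AOC4, CYP94B3, JAZ4, JAZ6, JAZ9, VSP2 and JMT, and 1 had a mean above 0, JAZ1. Among all genes these shares were 9.48% below and 10.6% above 0.

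The measured jasmonate genes leaned slightly to the negative side. Their median was -0.15, against 0.01 for all genes, and 24 of 35 had a mean below 0 (47.7% of all genes). On single arrays the median was -0.19, -0.02 and -0.06, so the lean was clearest on array 1. Below 0 on all 3 arrays were 11 of 35 (31.4%, against 18.0% of all genes), above 0 on all 3 were 3 (8.57%, against 19.7%), and 21 had mixed signs or a value of 0. These shares, and those that follow, describe genes listed with earlier results of these data known and were not tested. The pathway was also more variable than most genes, with a median SD between arrays of 0.335 against 0.185 for all genes, and 10 of 35 means were at least 0.5 in size (28.6%, against 11.6%). Of these, 7 lay at or below -0.5 (20.0%, against 5.27% of all genes) and 3 at or above 0.5 (8.57%, against 6.30%).

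For 25 of the 35 genes the 95% confidence interval of the mean ratio, from the same fit and not adjusted for many genes, lay wholly between -1 and 1. For 11 it lay between -0.5 and 0.5. Of all 24648 genes, 22106 had an interval between -1 and 1 and 14043 had one between -0.5 and 0.5. Both shares are larger than those of the jasmonate genes. An interval can pass these limits through the size of the mean as well as through its width. That of JAZ6, for 1, ran from -1.01 to -0.49. The 10 jasmonate genes whose intervals reached -1 or 1 were LOX2, AOC2, AOC3, AOC4, JAZ1, JAZ3, JAZ6, VSP2, TAT3 and ORA59.

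**Figure D1:**
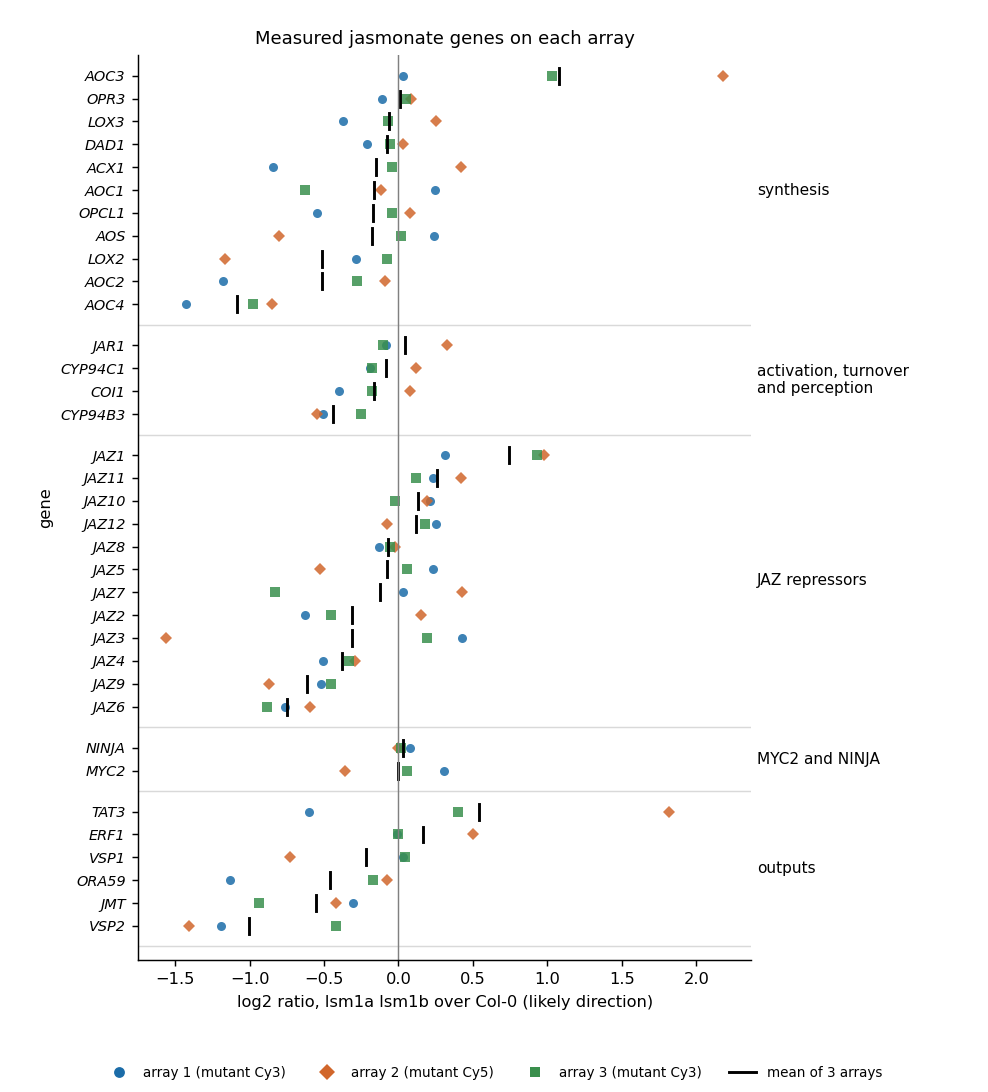
Log2 ratio of each measured jasmonate gene on each array (symbols) and the mean of the 3 arrays (black bar), grouped by role and ordered by mean within a group. AOC4, JAZ6 and JAZ9 have all 3 arrays below 0, while AOC3, JAZ3 and TAT3 are spread more widely, with array 2 as the extreme value.

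Among synthesis genes, AOC4 had the most negative mean and AOC3 the most positive. Both encode allene oxide cyclase, the enzyme that sets the geometry of OPDA. AOC4 (AT1G13280) stood at -1.43, -0.85 and -0.98 on arrays 1, 2 and 3, a mean of -1.09 ± 0.30 (SD, n = 3 arrays) or 2.12-fold lower (limma adjusted p = 0.0571). The 3 values of AOC4 all lay well below 0, yet the gene missed the threshold. AOC3 (AT3G25780) stood at 0.03, 2.18 and 1.03, a mean of 1.08 ± 1.08 (adjusted p = 0.266). It was near 0 on array 1 and above 0 on the other arrays, so its mean was no larger than its spread. Leaving out array 2 brought the mean of AOC3 to 0.53, and leaving out array 1 brought it to 1.61.

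The other cyclase genes lay between these. AOC2 (AT3G25770) stood at -1.18, -0.09 and -0.28 (mean -0.52 ± 0.58; adjusted p = 0.336), with array 1 alone far below 0. AOC1 (AT3G25760) stood at 0.24, -0.12 and -0.62 (mean -0.17 ± 0.44), and its signs were mixed. AOC1, AOC2 and AOC3 follow each other on chromosome 3 in the gene order of TAIR10.1, and AOC4 lies on chromosome 1. The ratio of AOC3 exceeded that of AOC4 by 1.46, 3.03 and 2.01 on the 3 arrays and that of AOC2 by 1.21, 2.27 and 1.31. Against AOC1 the difference was -0.21, 2.30 and 1.65, so only the first 2 contrasts kept their sign. The cyclase genes are close copies, and AOC2, AOC3 and AOC4 were each measured by 1 probe, so signal shared between copies cannot be told apart here. Differences between related genes were picked with their values known and were not tested.

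LOX2 (AT3G45140), the lipoxygenase gene that makes most wound jasmonate in leaves, stood at -0.29, -1.17 and -0.08, a mean of -0.51 ± 0.58 (adjusted p = 0.336). Averaged over probes, all 3 arrays lay below 0, but array 2 carried most of the size, and without it the mean was -0.18. The 4 LOX2 probes had means from -0.78 to -0.33, and on array 2 all of them lay at or below -0.85. They did not share a sign on arrays 1 and 3, where 1 probe stood above 0 (0.26, -1.57 and 0.21 on arrays 1, 2 and 3). AOS (AT5G42650), the enzyme gene that follows LOX2 in the pathway, stood at 0.24, -0.80 and 0.02, and was below 0 on array 2 only. LOX2 and JAZ11 lie in a stretch of 200 neighbouring measured genes on chromosome 3 (AT3G43291 to AT3G45490) that held 6 genes below -2 on both arrays 1 and 2. The stretch was picked for such falls, and the share of all genes with them is not given here. Neither LOX2 nor JAZ11 was near that value on array 1, and the part of the stretch in the values of LOX2 was not tested.

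The remaining synthesis genes were near 0. OPR3 (AT2G06050), the reductase gene specific to the OPDA route, had the mean nearest to 0 of the synthesis group, 0.01 ± 0.10, with a 95% interval from -0.23 to 0.25. DAD1 (AT2G44810), a lipase gene known for its role in anthers, stood at -0.08 ± 0.12, and LOX3 (AT1G17420) at -0.06 ± 0.32 over 4 probes. OPCL1 (AT1G20510) and ACX1 (AT4G16760), which encode enzymes of the peroxisomal shortening of the side chain, stood at -0.17 ± 0.33 and -0.15 ± 0.64. ACX1 ranged from -0.84 on array 1 to 0.42 on array 2, so its small mean came from values of opposite sign. Of the 11 measured synthesis genes, 0 passed (1.21% of all genes) and 9 had a mean below 0 (81.8%, against 47.7% of all genes). Below 0 on all 3 arrays were 3, LOX2, AOC2 and AOC4 (27.3%, against 18.0%). Above 0 on all 3 was 1, AOC3 (9.09%, against 19.7%).

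Of the genes for activation, turnover and perception, CYP94B3 was the lowest and JAR1 the highest, and 0 of 4 passed (1.21% of all genes). CYP94B3 encodes a cytochrome P450 that oxidises the active conjugate. CYP94B3 (AT3G48520) stood at -0.51, -0.55 and -0.25, a mean of -0.44 ± 0.16 (adjusted p = 0.118), below 0 on each array. CYP94C1 (AT2G27690), for the next oxidation of the same route, stood at -0.19, 0.12 and -0.18 (mean -0.08 ± 0.18). The hormone-conjugating enzyme gene JAR1 (AT2G46370) stood at -0.08, 0.32 and -0.11 (mean 0.04 ± 0.24) and its 3 probes agreed within 0.09 in their means. The receptor gene COI1 (AT2G39940) stood at -0.40, 0.08 and -0.18 (mean -0.17 ± 0.24; adjusted p = 0.569). For JAR1, CYP94C1 and COI1 the sign on array 2 was opposite to that on arrays 1 and 3.

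The JAZ repressor genes differed in direction. Their 12 means ran from -0.75 for JAZ6 to 0.74 for JAZ1, with a median of -0.10. Of the 12, 0 passed, against 1.21% of all genes. Below 0 on all 3 arrays were 4 (JAZ4, JAZ6, JAZ8 and JAZ9), or 33.3%, against 18.0% of all genes. Above 0 on all 3 were 2 (JAZ1 and JAZ11), or 16.7%, against 19.7%, and 6 had mixed signs. The group median was 0.12, -0.05 and -0.04 on arrays 1, 2 and 3, and it moved to 0.0013 when array 2 was left out.

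JAZ6 (AT1G72450) had the most negative mean of the JAZ genes. It stood at -0.77, -0.59 and -0.89 on arrays 1, 2 and 3, a mean of -0.75 ± 0.15 or 1.68-fold lower (adjusted p = 0.0569). Its 2 probes gave the same picture, with means of -0.75 and -0.74, and neither passed when each probe was tested on its own. JAZ9 (AT1G70700) stood at -0.52, -0.87 and -0.45 (mean -0.61 ± 0.23; adjusted p = 0.0889), again below 0 on every array. JAZ4 (AT1G48500) stood at -0.51, -0.29 and -0.34 (mean -0.38 ± 0.11; adjusted p = 0.123). All 3 genes missed the threshold. The spreads of JAZ6 and JAZ4 lay below the median SD of all genes, 0.185, and that of JAZ9 lay above it.

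JAZ1 (AT1G19180), whose protein was among the first JAZ proteins shown to be targets of COI1, stood on the other side. Its values were 0.31, 0.98 and 0.93, a mean of 0.74 ± 0.37 or 1.67-fold higher (adjusted p = 0.11). Its closest relative JAZ2 (AT1G74950) stood at -0.63, 0.15 and -0.45 (mean -0.31 ± 0.41), with array 2 above 0 and the others below. The ratio of JAZ1 exceeded that of JAZ2 by 0.94, 0.83 and 1.38 on the 3 arrays, although both genes were measured by a single probe. JAZ5 exceeded JAZ6, its relative in the same branch, by 0.99, 0.06 and 0.95, so this contrast nearly vanished on array 2.

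Other related JAZ genes showed no stable contrast. JAZ3 (AT3G17860) stood at 0.43, -1.56 and 0.19, a mean of -0.31 ± 1.09 (adjusted p = 0.815), the widest spread among the JAZ genes. Without array 2 the mean of JAZ3 was 0.31, so its sign rested on that array. The arrays left then all carry the mutant in Cy3, and with the dye term the value of JAZ3 was -0.625. JAZ7 (AT2G34600) stood at 0.03, 0.43 and -0.83 and JAZ8 (AT1G30135) at -0.13, -0.02 and -0.06, and the difference between them changed sign over the arrays. JAZ8 differs from most JAZ proteins in a degenerate degron that weakens binding to COI1. JAZ11 (AT3G43440) had a mean of 0.26 ± 0.15 (adjusted p = 0.261) and JAZ12 (AT5G20900) of 0.12 ± 0.17. JAZ10 (AT5G13220), a repressor gene with splice forms resistant to degradation and a widely used marker of the jasmonate response, stood at 0.13 ± 0.13, with a 95% interval from -0.12 to 0.38. JAZ5 (AT1G17380) stood at -0.08 ± 0.40.

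MYC2 (AT1G32640), the basic helix-loop-helix factor that JAZ proteins repress, had a mean of 0 exactly, from values of 0.30, -0.36 and 0.06. Its 2 probes had means of -0.01 and 0.01, and its 95% interval ran from -0.40 to 0.40. NINJA (AT4G28910), the adaptor between JAZ proteins and the corepressor TOPLESS, stood at 0.07, 0 and 0.02 (mean 0.03 ± 0.04). This small spread came from averaging, since the 2 NINJA probes ran in opposite directions, at 0.34, -0.35 and 0.11 against -0.19, 0.35 and -0.07.

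Among outputs, VSP2 had the lowest mean and TAT3 the highest, and 0 of 6 passed (1.21% of all genes). VSP2 (AT5G24770) encodes a vegetative storage protein with acid phosphatase activity and is the standard leaf marker of the MYC branch. It stood at -1.19, -1.40 and -0.42, a mean of -1.004 ± 0.52 or 2.01-fold lower (adjusted p = 0.104). All 3 arrays lay below 0, with array 3 the least. Its 3 probes disagreed in size but not in sign, with means of -1.76, -1.003 and -0.25.

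VSP1 (AT5G24780), the neighbouring and closely similar copy, stood at 0.03, -0.72 and 0.04 (mean -0.22 ± 0.44; adjusted p = 0.648). This mean hides a split between its 4 probes. The pair assigned to one VSP1 transcript record lay below 0 on every array, with means of -0.87 and -0.68. The pair assigned to the other record had means of 0.20 and 0.48. Like the VSP2 probes, the low VSP1 pair was lower on arrays 1 and 2 than on array 3. The probe sequences were not used here, so signal shared between VSP1 and VSP2 cannot be told apart, and neither gene has 1 agreed value. Probe means over 1 apart were found in 2 of the 16 jasmonate genes with several probes, VSP1 and VSP2, and in 2.44% of all such genes.

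**Figure D2:**
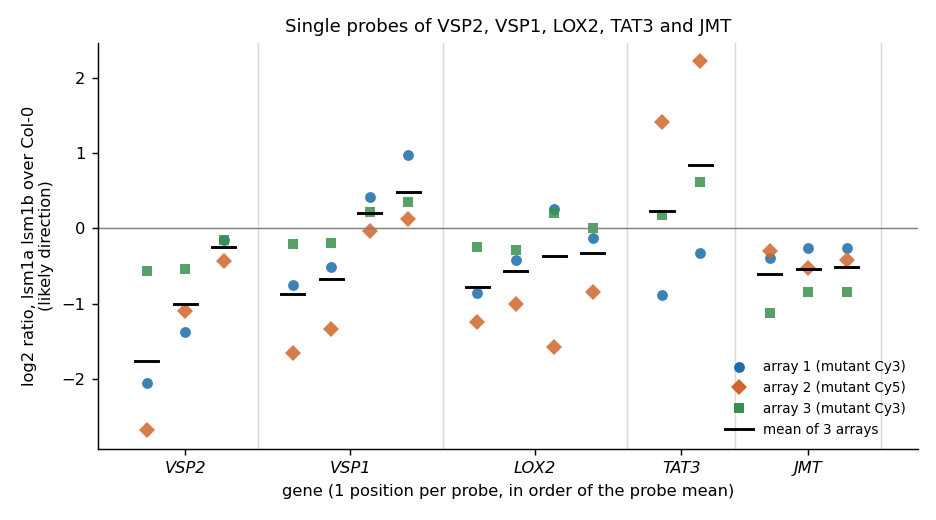
Log2 ratio of every probe of VSP2, VSP1, LOX2, TAT3 and JMT on each array (symbols), with the probe's mean over 3 arrays (black bar). The VSP1 probes split into a pair below 0 and a pair above it in their means, while the 3 JMT probes lie close together.

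JMT (AT1G19640), which encodes the enzyme that methylates jasmonic acid to its volatile ester, stood at -0.30, -0.42 and -0.94, a mean of -0.55 ± 0.34 (adjusted p = 0.155). Its 3 probes agreed, with means from -0.60 to -0.51, and all lay below 0 on every array. TAT3 (AT2G24850), a tyrosine aminotransferase gene induced by jasmonate, stood at -0.60, 1.81 and 0.40 (mean 0.54 ± 1.21; adjusted p = 0.658). The arrays of TAT3 differed in sign, both of its probes were high on array 2, and without that array the mean was -0.10.

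The 2 ethylene-linked factor genes did not share a direction. ORA59 (AT1G06160) stood at -1.13, -0.08 and -0.17 (mean -0.46 ± 0.58; adjusted p = 0.391), with array 1 far below the others. Without array 1 the mean of ORA59 was -0.13. ERF1 (AT3G23240) stood at -0.01, 0.50 and 0 (mean 0.16 ± 0.29; adjusted p = 0.636), away from 0 on array 2 alone.

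Set side by side, synthesis, repressor and output genes had medians of -0.17, -0.10 and -0.34. The median of outputs lay below that of the JAZ genes on all 3 arrays, with differences of -0.57, -0.20 and -0.05. It also lay below that of synthesis genes, by differences of -0.16, -0.28 and -0.03. Synthesis minus JAZ genes gave -0.41, 0.08 and -0.02, which changed sign. The differences of outputs depended on VSP1 and VSP2, and the differences from JAZ genes depended on array 1. Without VSP1 and VSP2, whose probes differ by more than 1, the output median was -0.15 over 4 genes, its difference from synthesis 0.02 and that from JAZ genes -0.05. Without array 1 the synthesis median was -0.015, outputs minus JAZ genes -0.06 and synthesis minus JAZ genes 0.16. Outputs minus synthesis was then -0.22. The ranges of the 3 groups overlapped almost wholly, from -1.09 to 1.08 for synthesis, -0.75 to 0.74 for JAZ genes and -1.004 to 0.54 for outputs.

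Array 2, with the dyes swapped, set many of the extreme values. In 14 of 35 genes (40.0%) its sign was opposite to that of both other arrays, against 32.4% of all genes. Its value lay farther from the mean of arrays 1 and 3 than these lay from each other in 21 of 35 (60.0%), against 63.0% of all genes, so in this respect the jasmonate genes were close to the rest. Over the 35 genes, arrays 1 and 3 correlated at r = 0.471, arrays 1 and 2 at 0.144 and arrays 2 and 3 at 0.526, where all genes gave 0.745, 0.427 and 0.452. These are correlations across genes of the same arrays, which are not independent, and are given as a description. Dye and replicate cannot be told apart on array 2, since it is the only array of its orientation. In every value given without array 2, genotype and dye cannot be told apart, since arrays 1 and 3 both carry the mutant in Cy3. The mean over 3 arrays weighs the orientations unequally. With the dye term, which weighs them alike, LOX2 was at -0.67, AOC3 at 1.355 and TAT3 at 0.86. A dye effect on single genes was not tested.

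**Figure D3:**
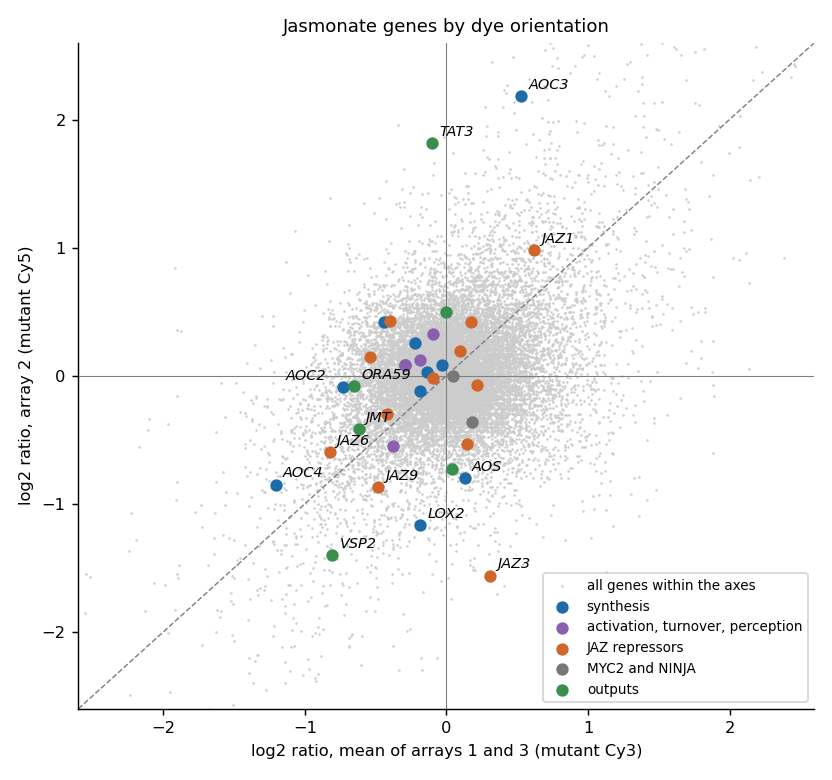
Log2 ratio on array 2 (mutant in Cy5) against the mean of arrays 1 and 3 (mutant in Cy3) for the 35 jasmonate genes, coloured by role, over all genes in grey (89 genes lie outside the axes), with the line of equal values dashed. AOC4, JAZ6, JAZ9 and VSP2 lie below 0 on both axes, while JAZ3, AOS and TAT3 have opposite signs on them.

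A further 50 jasmonate genes, listed for their known place in the pathway with earlier results of these arrays in view, gave a wider picture. Of these, 48 were measured and 0 passed (1.21% of all genes). At an unadjusted p under 0.05 there were 18 of 48 (37.5%, against 20.1% of all genes), of which 13 lay below 0 (27.1%, against 9.48%) and 5 above (10.4%, against 10.6%). Their median was -0.0028. These shares too describe a list drawn up with results known and were not tested. The 9 output genes of this list had the lowest median, -1.0, with 8 means below 0 (88.9%, against 47.7% of all genes). That median is the mean of 1 gene, PR4, whose arrays differed in sign (SD 1.65). The PDF1.2 genes, which are near-identical copies, lie below it, so they count more than once in this median. The other groups had medians of -0.02 for supply of the precursor, 0.09 for peroxisomal steps, -0.02 for turnover and 0.02 for signalling.

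The defensin genes of the ERF branch had the most negative means of the jasmonate genes listed here, though on array 2 CLH1, at -1.78, lay below all 3 of them. PDF1.2A stood at -2.55, -1.72 and -3.82 (mean -2.70 ± 1.06; adjusted p = 0.0696). PDF1.2B and PDF1.2C had means of -1.89 ± 0.74 and -2.21 ± 0.83 (adjusted p = 0.0709 and 0.0669). All 3 were below 0 on every array, but they are near-identical copies with 1 probe each, so signal shared among them cannot be told apart. PDF1.2A and PDF1.2C lie in a stretch of 200 measured genes on chromosome 5 (AT5G44270 to AT5G46200). This stretch too was picked for strong falls, and it held 3 genes below -2 on both arrays 1 and 2. The part of the stretch in the values of PDF1.2A and PDF1.2C was not tested. PR4, for a chitin-binding protein of the same branch, stood at -1.49, 0.84 and -2.35, so array 2 was opposite in sign to the others. CHIB, a basic chitinase gene, was at -0.03 ± 0.32. The upstream gene ORA59 was on the same side as the PDF1.2 genes, but far below 0 on array 1 only, and ERF1 had a mean of 0.16.

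Other outputs differed among themselves. CLH1, a chlorophyllase gene induced by the jasmonate mimic coronatine, stood at -0.74, -1.78 and -1.41 (mean -1.31 ± 0.53; adjusted p = 0.0768). CORI3, another coronatine-induced gene, stood at 1.49, 0.64 and 1.27 (mean 1.13 ± 0.44; adjusted p = 0.0768). Each had 1 sign on all 3 arrays, and the signs were opposite. The thionin gene THI2.1 was at -0.23 ± 0.03 and the lectin gene JR1 at -0.34 ± 0.50.

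In the peroxisomal group, OPR2 and KAT5 stood apart. OPR2, an OPDA reductase paralogue not specific to jasmonate synthesis, stood at 2.51, 0.96 and 1.72 (mean 1.73 ± 0.77; adjusted p = 0.0817), while OPR1 beside it on chromosome 1 was at 0.01 ± 0.11. KAT5, a thiolase gene, stood at -0.83, -1.65 and -0.92 (mean -1.13 ± 0.45; adjusted p = 0.0769), while KAT2, the thiolase gene linked to jasmonate synthesis, was at 0.30 ± 0.25 over 7 probes. In turnover, the amidohydrolase gene IAR3, whose enzyme splits amino acid conjugates, was highest at 0.55 ± 0.10 (adjusted p = 0.0732) and its relative ILL6 lowest at -0.45 ± 0.11 (adjusted p = 0.093). In signalling, the corepressor gene TPL (TOPLESS) was lowest at -0.94, -0.40 and -1.12 (mean -0.82 ± 0.38; adjusted p = 0.0947), and NAC019, a target gene of MYC2, was highest at 0.66 ± 0.56 (adjusted p = 0.221). Among genes that supply or divert the precursor, the desaturase gene FAD8 was lowest at -0.51 ± 0.34 and HPL1, for the competing lyase, highest at 0.42 ± 0.52.

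**Figure D4:**
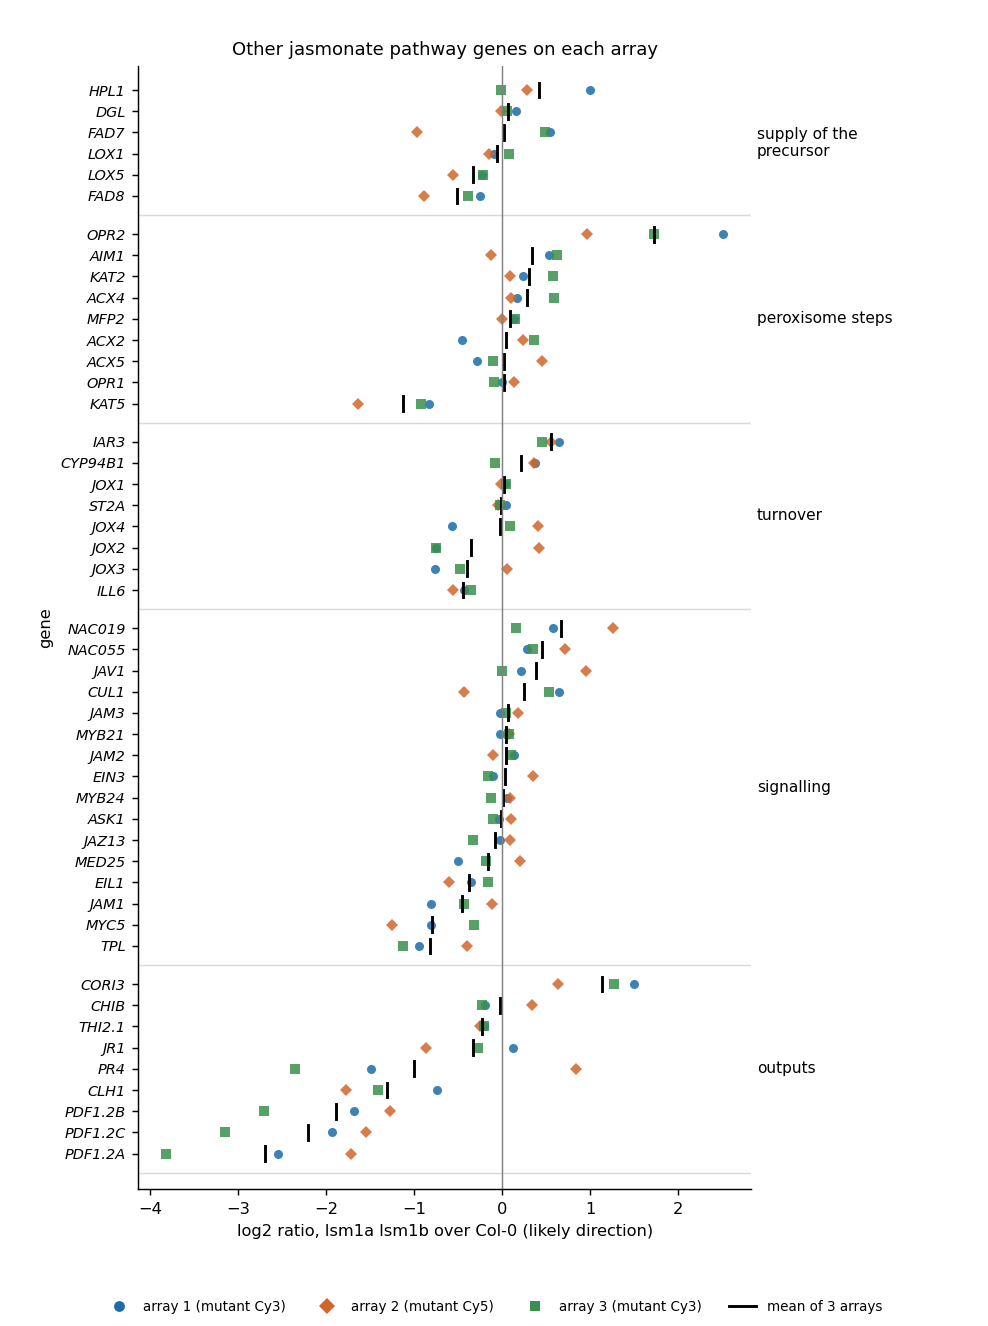
Log2 ratio of the 48 further jasmonate genes on each array (symbols) and the mean of 3 arrays (black bar), by group and ordered by mean. The PDF1.2 genes and CLH1 lie below 0 and CORI3 and OPR2 above 0 on every array, while the means of signalling genes run from -0.82 to 0.66 and those of turnover genes from -0.45 to 0.55.

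Tissue markers showed no flower or root gene past the threshold, which 1.21% of all genes passed. The 6 flower genes had means from -0.05 to 0.30 and the 5 root genes from -0.59 to 0.15. The lowest root value was that of GL2 alone, and the other root genes ran from -0.13 to 0.15. Whether GL2 reports root tissue in these samples was not tested. The 3 mesophyll genes, RBCS1A, CAB1 and LHCB2.1, stood at -0.71 ± 0.78, -1.51 ± 1.22 and -2.58 ± 1.21, with 0 past the threshold. Probe means of RBCS1A were up to 1.11 apart. The 2 probe means of LHCB2.1 were 4.46 apart, so this gene has no agreed value. LHCB2.1 (AT2G05100) also lies in a stretch of 200 measured genes (AT2G03180 to AT2G05720) that was picked for strong falls. The part of the mesophyll genes in the leaf-expressed jasmonate genes was not tested.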

How the data were processed

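The authors deposited 1 normalized log2 ratio per probe and array, to 2 decimals. limma is named per the submitters' processing notes, without a version. No source used here gives the background and dye correction, the log base or the sign. Base 2 was assumed, and the range of the values (-6.76 to 5.87) does not settle it. Array medians were 0, 0.01 and -0.01. No intensities were used, so dim probes were not recognised.

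Of 43656 rows, 55 were control features. Probes were named through the platform annotation, which can be old, and the RefSeq gene table of TAIR10.1: 32240 by accession and 2015 by symbol, with 9259 lacking a symbol, 42 in conflict and 45 unmatched. Probes of a gene were averaged per array. Gene means were fitted with limma 3.58.1 in R 4.3.3 (lmFit, eBayes, intercept only), as tested on simulated data. There 200 of 24648 genes were changed, and the fit found 37% of changes of log2 size 1 and 70% of those of size 2. Such rates depend on the number of changed genes, which is not known for these arrays. The simulated noise was independent between arrays, with no dye effect, unlike what these arrays may hold. A gene that missed the threshold is thus not shown to be unchanged. Alternatives are given in the closing section.

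The members and the other lists were chosen with earlier results of these data known, as were the 5 chromosome stretches, which were picked for strong falls. Values on every array are given for members with 1 sign and a mean of at least 0.5 in size, with probe means over 1 apart, or highest or lowest in a group, and further genes are named at 0.8 or as the highest or lowest. Genes named beyond this rule were chosen after their values were seen.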

Additional observations from a re-analysis of the deposited data

How the results depend on the processing

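The number of all genes past the threshold depended on the setting, and that of the jasmonate genes was 0 in each. Where 0 of all genes passed, the 0 of the jasmonate genes was fixed by that and shows no stability of their own. In the reported fit 1.21% of all genes passed, so 0 of 35 was near that share. In limma, 298 genes passed in all. With a dye term 0 passed (6389 at an unadjusted p under 0.05), without array 1, 2 or 3 each time 0 passed (2542 to 7326 unadjusted), with scaling between arrays 76 and with robust eBayes 181. Of the jasmonate genes 0 passed in these fits, and likewise with the median of probes, with each array centred and without genes whose probes differ by more than 1, and 0 of their 60 probes passed when tested singly. Over the alternative fits their lowest adjusted p was 0.0514, for AOC4 with scaling. At an unadjusted p under 0.05 there were 8 jasmonate genes in the reported fit, 15 with the dye term, and 5 to 9 when 1 array was left out (all genes 10.3% to 29.7%). The mean kept 1 direction in 21 of 35 genes and turned at least once in 13, each of them uncalled, and MYC2, at 0, took both signs.

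Without genes whose probes differ by more than 1, the output median was -0.15 and outputs minus synthesis 0.018. Leaving out 1 array gave medians from -0.175 to 0.0013 for JAZ genes, -0.21 to -0.015 for synthesis and -0.36 to -0.233 for outputs. The differences ran from -0.361 to -0.058 for outputs minus JAZ genes and -0.191 to 0.16 for synthesis minus JAZ genes. Outputs minus synthesis ran from -0.218 to -0.143. Shared signal between copies was not tested. The reported fit is itself paired by array, since each ratio sets both genotypes against each other on 1 array. Turning the ratio turns every sign and no p-value.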
